A study of Mus musculus with 16 samples.

Results

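The loss of p53 was examined in muscle stem cells of the 3dai groups of a mouse series, by comparing 3 libraries labelled p53KO_3dai with 3 labelled p53WT_3dai, 6 of the 16 libraries in all. The libraries were taken by their labels alone. The cells came from the tibialis anterior of C57BL/6 mice between 2 and 3 months old and were sorted as CD34+ and alpha-7 integrin+, with CD31, CD11b, CD45 and Sca-1 used to remove other cells, so both groups share strain, age, muscle and sort and differ in the labelled genotype, p53 WT or p53KO. The labels do not spell out 3dai, and the sources used here do not state the knockout allele, the cells it was made in or the part of the gene removed. Nothing labels the replicates as separate animals, so each p measures the spread between these samples, which may be technical. The values are FPKM, a transcript level per length of gene and per library total, and differences were taken on log2(FPKM + 1), a scale that understates the change of low genes. Of 24341 genes, 11128 reached 1 FPKM in at least 2 of the 6 libraries and were tested.

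p53, encoded by Trp53, is a transcription factor that is stabilised by DNA damage and other stress. It binds a response element built of 2 half-sites of 10 bases and switches on genes that stop the cell cycle, promote cell death, repair DNA and adjust metabolism, and it also switches on Mdm2, whose product marks p53 for destruction. Muscle stem cells, also called satellite cells, lie quiescent beside the muscle fibre, carry Pax7 and enter the cell cycle when muscle is injured.

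The labelled cell type was checked against its markers. All 12 satellite cell markers had a value above 0 in at least 1 of the 6 libraries, and their summed level was 872 to 923 FPKM in p53WT_3dai and 907, 867 and 864 FPKM in p53KO_3dai replicates 1, 2 and 3. Myod1, which drives the myogenic programme, was at 261, 282 and 266 FPKM in p53WT_3dai and at 206, 252 and 255 FPKM in p53KO_3dai. Pax7 was at 8.18, 6.67 and 5.45 FPKM against 5.22, 10.5 and 10.8 FPKM, so its groups overlapped. The sort's positive genes were high in every library, with Cd34 at 42.7 to 61.6 FPKM against 44.4 to 77.1 FPKM and Itga7 at 183 to 205 FPKM against 181 to 226 FPKM. Of the genes sorted against, Pecam1 and Ptprc were listed at 0 in all 6, Itgam reached 0.12 FPKM and Ly6a 6.60 FPKM. Neutrophil markers, including S100a8 and S100a9, were listed at 0 for 9 of 9 genes.

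The 3 p53KO_3dai libraries did not resemble each other equally, and each is therefore given on its own throughout. Across the 11128 genes, p53KO_3dai replicate 1 correlated at r = 0.926 to 0.949 with the p53WT_3dai libraries but at 0.907 and 0.912 with p53KO_3dai replicates 2 and 3, while replicates 2 and 3 correlated at 0.957 with each other. These correlations are across genes, which are not independent, and serve as description. Mir6236, a small RNA name, held 9.81% and 10.1% of the summed FPKM in replicates 2 and 3, against 1.31% in replicate 1 and 1.15% to 1.78% in p53WT_3dai. Replicate 1 lay below the range of the 3 p53WT_3dai libraries at 22.7% of the genes tested and above it at 25.2%. For replicate 2 these shares were 32.4% and 25.4%, and for replicate 3 they were 32.6% and 23.8%.

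Trp53 checks the labels (chromosome 11, 69580359 to 69591873, mm10). Its level was 133.6, 135.3 and 160.8 FPKM in p53WT_3dai and 41.3, 45.7 and 34.9 FPKM in p53KO_3dai. All 3 p53KO_3dai libraries lay below every p53WT_3dai library, and here replicate 1 did not stand apart from the other p53KO_3dai replicates. The mean was 143 ± 15.2 FPKM (SD, n = 3) against 40.6 ± 5.44 FPKM (SD, n = 3), a log2 difference of -1.80 (SE 0.22, limma adjusted p = 0.0031). Transcript was thus lower in p53KO_3dai without being at 0, and each value is taken over the whole of the gene.

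Across all genes, 14 passed at an adjusted p of 0.05 or less (limma, Benjamini-Hochberg), 0.126% of those tested, with 12 lower (0.108%) and 2 higher (0.018%) in p53KO_3dai. Besides Trp53, 8 of the 12 lower genes are on the p53 target lists: Phlda3, Ccng1, Mdm2, Trp53inp1, Pmaip1, Cdkn1a, Slc19a2 and Ephx1. The other lower genes were Ypel3, Prss8 and Glrp1, and the higher genes were Pigb and the unnamed locus AA465934. At an unadjusted p under 0.05 there were 1120 genes (10.1%), 826 lower (7.42%) and 294 higher (2.64%). The number of calls depended on single libraries: it was 576 without p53KO_3dai replicate 1, and 3, 2 and 2 without p53WT_3dai replicates 1, 2 and 3, and 3 and 5 without p53KO_3dai replicates 2 and 3. Phlda3 and Trp53 kept their calls in each of these 6 fits, and all 14 genes kept theirs without p53KO_3dai replicate 1.

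**Figure D1:**
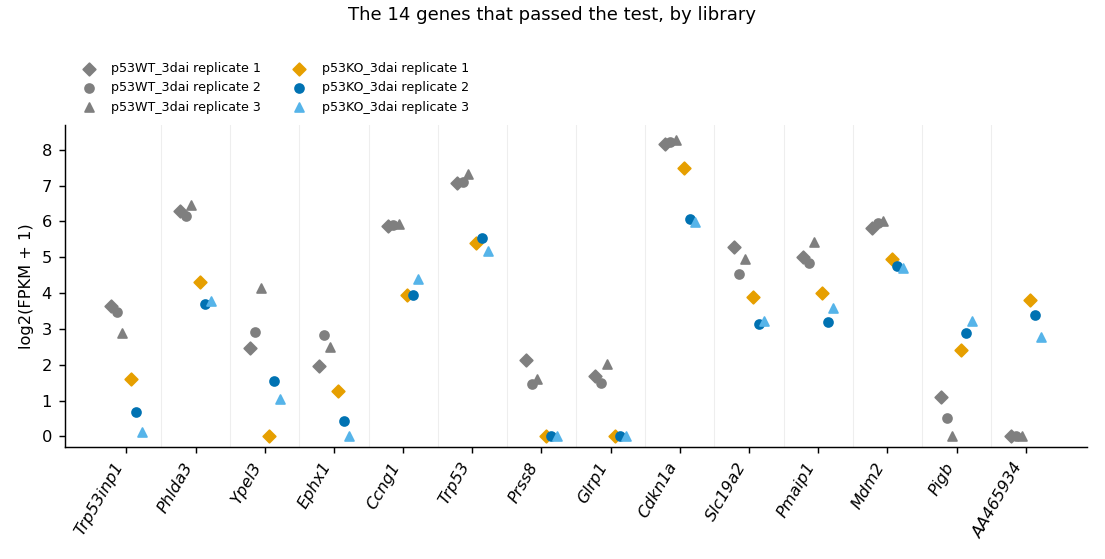
Levels of the 14 called genes on the log2(FPKM + 1) axis, each point 1 library, grey for p53WT_3dai and coloured for p53KO_3dai, with the replicate number as the symbol; genes run from the largest fall to the largest rise. The groups do not overlap at any of the 14 genes, and at Cdkn1a p53KO_3dai replicate 1 (orange) lies between p53WT_3dai and replicates 2 and 3.

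Where the promoter bears on the p53 targets, the stretch of 250 bases before the start of the gene is shown for Ccng1 and Cdkn1a, both called and both holding a match to the p53 response element upstream of the start. Sequences are from RefSeq (GRCm38.p6), read 5′ to 3′ along the gene, and the capitals mark the 2 half-sites of the match with the fewest mismatches to the consensus. In Ccng1 (chr11:40755287-40755536, minus strand) the half-sites adjoin, with 1 mismatch in 20 positions, from base -195 to base -176 before the start. In Cdkn1a (chr17:29090729-29090978, plus strand) they have 0 mismatches and a spacer of 12 bases, from base -73 to base -42. The 10 bases right after the second of them, tgacatgttc, form an adjoining half-site with 1 mismatch. They are left in lower case because the pair with the fewest mismatches was kept.
Ccng1: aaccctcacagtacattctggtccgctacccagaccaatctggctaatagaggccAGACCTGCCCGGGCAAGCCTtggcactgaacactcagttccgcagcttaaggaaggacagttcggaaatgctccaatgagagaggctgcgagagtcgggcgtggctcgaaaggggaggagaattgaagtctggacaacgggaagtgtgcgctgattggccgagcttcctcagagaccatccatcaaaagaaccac
Cdkn1a: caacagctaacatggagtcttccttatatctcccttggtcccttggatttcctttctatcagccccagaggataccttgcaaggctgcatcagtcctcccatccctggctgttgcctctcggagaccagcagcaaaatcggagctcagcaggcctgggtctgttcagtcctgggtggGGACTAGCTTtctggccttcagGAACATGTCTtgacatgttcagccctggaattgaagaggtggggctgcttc

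The search took the p53 response element on both strands with at most 3 mismatches and a spacer of up to 13 bases, in windows of 300 bases that reach 50 bases past the start. Such a match was in the window of 18 of the 50 p53 targets with an entry (36.0%), and in 4 of the 9 genes called lower with an entry (44.4%): Ccng1, Cdkn1a, Trp53 and Ypel3. Among the 8514 genes tested with an entry the share was 17.8%, and among all 27025 genes with an entry it was 17.4%. A match is a description of letters and not a binding site, and a window without one says nothing about p53.

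Genes that feed back on p53 held 3 of the 8 called targets, with 6 tested, against 0.108% of all genes called lower. Ccng1, which encodes cyclin G1 (chromosome 11, 40748552 to 40755286), was at 57.2, 59.3 and 59.4 FPKM in p53WT_3dai and 14.3, 14.3 and 19.9 FPKM in p53KO_3dai. The p53WT_3dai libraries were nearly level and all p53KO_3dai libraries far below them, replicate 1 included (mean 58.6 ± 1.23 against 16.2 ± 3.25 FPKM, SD, n = 3 each; log2 difference -1.81, SE 0.25, limma adjusted p = 0.0105). Mdm2, the ubiquitin ligase that targets p53 (chromosome 10, 117688875 to 117710758), was at 55.5, 60.6 and 63.4 FPKM against 30.1, 25.98 and 24.8 FPKM, again with the 3 p53KO_3dai libraries close together (log2 difference -1.12, SE 0.20, adjusted p = 0.0428). Trp53inp1, whose product acts in autophagy and cell death (chromosome 4, 11156441 to 11174377), was at 11.5, 10.2 and 6.34 FPKM against 2.06, 0.592 and 0.0975 FPKM (log2 difference -2.53, SE 0.41, adjusted p = 0.0314). Of the other members tested, Ppm1d, a phosphatase that dampens the damage response, was at 11.4, 15.6 and 14.7 FPKM against 12.8, 4.50 and 4.26 FPKM, low in replicates 2 and 3 only. Pvt1, a long noncoding RNA, was at 2.25, 2.61 and 3.10 FPKM against 5.94, 3.83 and 4.93 FPKM and did not pass (adjusted p = 0.393).

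Among targets that restrain the cell cycle and growth, 2 of 16 tested were called and both were lower, against 0.108% of all genes called lower. At an unadjusted limma p under 0.05, 8 were lower and 1 higher, against 7.42% and 2.64% of all genes. Phlda3, which holds back Akt at the membrane (chromosome 1, 135766085 to 135769134), had the smallest p of all genes tested. It was at 76.9, 69.8 and 87.5 FPKM in p53WT_3dai and at 18.9, 12.1 and 12.9 FPKM in p53KO_3dai, with every p53KO_3dai library far under the lowest p53WT_3dai library (mean 78.1 ± 8.93 against 14.6 ± 3.77 FPKM, SD, n = 3 each; log2 difference -2.36, SE 0.26, adjusted p = 0.00136). Cdkn1a, which encodes the cyclin-dependent kinase inhibitor p21 (chromosome 17, 29090986 to 29100722), was at 284, 298 and 310 FPKM against 179, 65.7 and 62.6 FPKM. All 3 p53KO_3dai libraries were lower, but replicate 1 stood 0.73 below the p53WT_3dai mean on the log2 scale and replicates 2 and 3 stood 2.16 and 2.23 below it (log2 difference -1.71, SE 0.29, adjusted p = 0.0384; 3.55e-06 without replicate 1). Gdf15, a secreted stress factor, was at 7.82, 23.4 and 14.1 FPKM against 2.90, 0.127 and 2.82 FPKM, without overlap and short of the limit (log2 difference -2.53, SE 0.50, adjusted p = 0.0844). Gtse1, Ier5 and Kitl also had every p53KO_3dai library under every p53WT_3dai library and did not pass. Epha2, an ephrin receptor, was the member of this list whose groups did not overlap in the other direction, at 34.0, 29.4 and 34.4 FPKM against 39.2, 46.5 and 51.8 FPKM (log2 difference 0.47, SE 0.18, adjusted p = 0.354). At Plk2, a kinase induced by p53 and by other stress, the replicates parted: 167, 212 and 124 FPKM in p53WT_3dai, 200 FPKM in p53KO_3dai replicate 1, and 20.6 and 24.1 FPKM in replicates 2 and 3.

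Of 13 cell death targets, 1 was called, and it was lower, against 0.108% of all genes called lower. The unadjusted limma p was under 0.05 at 9 lower and 0 higher members, against 7.42% and 2.64% of all genes. Pmaip1, which encodes the BH3-only protein Noxa, was at 31.2, 27.5 and 42.3 FPKM in p53WT_3dai and at 14.9, 8.20 and 11.1 FPKM in p53KO_3dai (log2 difference -1.50, SE 0.24, adjusted p = 0.0314). Bax, the effector that opens the outer mitochondrial membrane (chromosome 7, 45461695 to 45466898), was at 145, 130 and 151 FPKM against 93.2, 91.2 and 92.1 FPKM. Its p53KO_3dai libraries lay close together and below all p53WT_3dai libraries, and the gene did not pass (log2 difference -0.61, SE 0.30, adjusted p = 0.517; 0.544 in a fit of only the 6 libraries). Bbc3, which encodes the BH3-only protein Puma, was at 13.5, 19.3 and 18.7 FPKM against 12.3, 2.11 and 2.81 FPKM, with replicate 1 just under the lowest p53WT_3dai library (adjusted p = 0.246). Tnfrsf10b, a death receptor, Zmat3 and Pidd1 also had groups that did not overlap, all lower and none called. Eda2r and Fas, both receptors of the tumour necrosis factor family, were within the p53WT_3dai range in replicate 1 and below it in replicates 2 and 3. Eda2r was at 19.1, 24.4 and 7.44 FPKM against 14.1, 0.184 and 0.624 FPKM.

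Repair and nucleotide targets had the median nearest 0 of the 5 lists. Of 8 tested 0 were called, against 0.126% of all genes, and 1 was lower at an unadjusted limma p under 0.05, against 7.42% of all genes. The median log2 difference was -0.03, which turned to 0.03 under median-of-ratios scaling. Ercc5, a nuclease of nucleotide excision repair, was the only member whose groups did not overlap, at 8.27, 6.26 and 9.70 FPKM against 3.78, 5.50 and 3.61 FPKM (adjusted p = 0.275). Rps27l, a ribosomal protein paralogue, was at 670 to 783 FPKM against 648 to 776 FPKM.

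Metabolic and stress targets had 2 of 17 called, both lower, against 0.108% of all genes called lower. At an unadjusted limma p under 0.05, 9 were lower and 0 higher, against 7.42% and 2.64% of all genes. Slc19a2, a thiamine transporter (chromosome 1, 164249046 to 164265385), was at 38.0, 22.2 and 29.9 FPKM against 13.7, 7.81 and 8.41 FPKM (log2 difference -1.51, SE 0.26, adjusted p = 0.0384). Ephx1, microsomal epoxide hydrolase, was low in all 6 libraries, at 2.87, 6.13 and 4.63 FPKM against 1.40, 0.344 and a listed 0 (adjusted p = 0.0419). Sesn2 and Ddit4, which restrain mTORC1 signalling, parted the replicates: Sesn2 was at 17.1, 22.9 and 23.1 FPKM in p53WT_3dai, 27.1 FPKM in p53KO_3dai replicate 1, listed at 0 in replicate 2 and 1.19 FPKM in replicate 3. Ddit4 was at 45.6, 55.8 and 37.7 FPKM against 38.9, 5.08 and 1.96 FPKM. Abhd4, Dyrk3, Ak1, Lpin1 and Gls2 were lower in all 3 p53KO_3dai libraries and did not pass, with adjusted p from 0.246 to 0.588. Pank1, which makes coenzyme A, was higher in all 3, at 1.61, 0.886 and 0.957 FPKM against 2.52, 2.09 and 2.01 FPKM (adjusted p = 0.625).

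Counted over the 5 lists, 60 of 65 p53 targets were tested, 8 were lower and 0 higher by the limma test, against 0.108% and 0.018% of all genes. At an unadjusted p under 0.05, 31 were lower and 2 higher, against 7.42% and 2.64% of all genes. The lists were chosen with earlier results of these libraries known, so the count is no independent evidence of direction. Every p53KO_3dai library lay below every p53WT_3dai library at 23 of 60 targets (38.3%), against 7.73% of all genes, and above at 3 (5%), against 5.64%. The median log2 difference was -0.74, against -0.04 over all genes tested. By replicate the median difference from the p53WT_3dai mean was -0.18, -0.90 and -0.77. Replicate 1 was below the p53WT_3dai range at 25 targets (41.7%), replicate 2 at 40 (66.7%) and replicate 3 at 38 (63.3%), against 22.7%, 32.4% and 32.6% of all genes. At 14 targets (23.3%, against 15.5% of all genes) replicates 2 and 3 were below the range and replicate 1 was not, and at 1 target replicate 1 was below it and the other p53KO_3dai replicates were not, against 9.51% of all genes. Without replicate 1 the fit called 21 targets lower and 0 higher, where it called 4.84% and 0.44% of the genes. With replicate 1 as the only p53KO_3dai library no gene was called, and the median over the targets was -0.14.

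**Figure D2:**
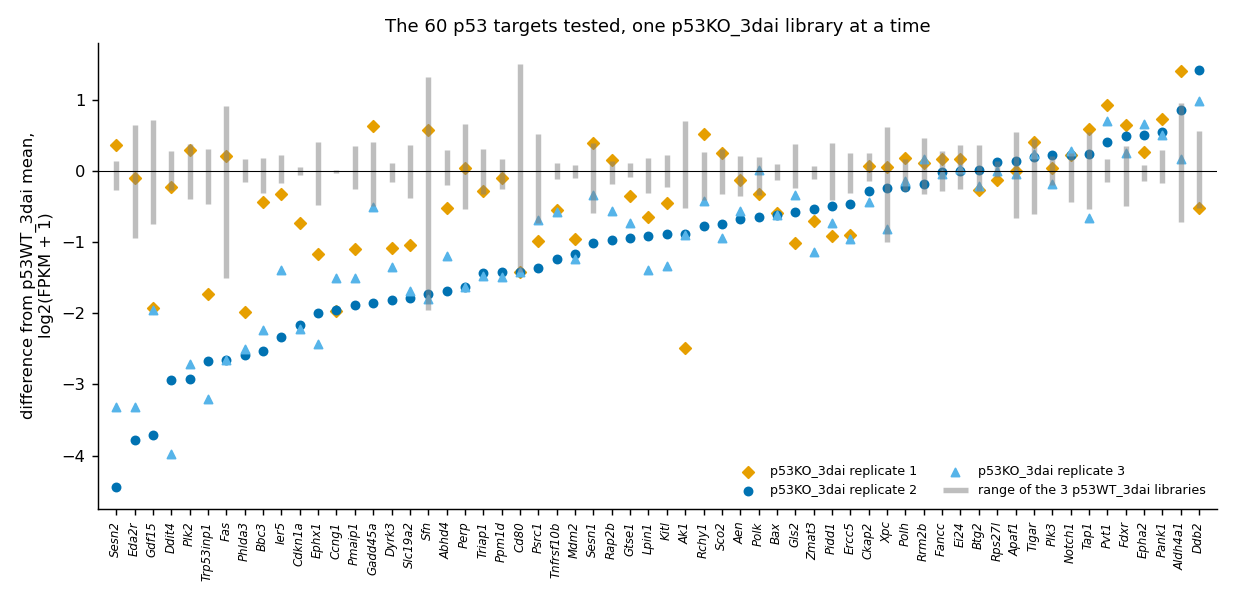
Difference of each p53KO_3dai library from the p53WT_3dai mean at the 60 p53 targets tested, in log2(FPKM + 1), with genes ordered by replicate 2; grey bars span the 3 p53WT_3dai libraries. Replicates 2 and 3 lie together for most genes on the left, and replicate 1 joins them at genes such as Phlda3 and Ccng1 but sits at the p53WT_3dai level at Sesn2, Plk2 and Ddit4.

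Of 15 regulators of p53 tested outside the target lists, Trp53 itself was the only one called, and it was lower, against 0.108% of all genes called lower. By the unadjusted limma p under 0.05, 2 were lower and 0 higher, against 7.42% and 2.64% of all genes. Sirt1, a deacetylase that acts on p53, was at 39.5, 31.4 and 31.4 FPKM against 27.2, 21.9 and 15.1 FPKM, without overlap and without passing (log2 difference -0.68, SE 0.23, adjusted p = 0.308). Mdm4, a partner of Mdm2, was at 13.7 to 15.3 FPKM against 13.6, 20.5 and 21.3 FPKM, and Cdkn2a, whose locus encodes both p16 and Arf, was at 7.27, 9.93 and 25.9 FPKM against 19.96, 15.2 and 13.35 FPKM. Bcl2 family members and caspases outside the target lists had 0 of 22 called, against 0.126% of all genes, and a median of 0.01. At an unadjusted limma p under 0.05, 3 were lower and 0 higher, against 7.42% and 2.64% of all genes. Bcl2l11, which encodes Bim, was at 4.65 to 6.10 FPKM against 2.59 to 2.89 FPKM without overlap (adjusted p = 0.268). Bmf was at 2.02 to 3.30 FPKM against a listed 0 to 0.548 FPKM (adjusted p = 0.178).

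Called genes outside the lists were mostly of low level. Ypel3, a growth inhibitor, was at 4.52, 6.61 and 16.7 FPKM in p53WT_3dai and was listed at 0 and at 1.94 and 1.07 FPKM in p53KO_3dai (adjusted p = 0.0428). Prss8, a serine protease, was at 3.37, 1.76 and 2.04 FPKM and Glrp1 at 2.22, 1.79 and 3.08 FPKM in p53WT_3dai, and both were listed at 0 in all 3 p53KO_3dai libraries (adjusted p = 0.0419 and 0.0428). Pigb, an enzyme of glycosylphosphatidylinositol anchor synthesis, was at 1.16 and 0.442 FPKM and a listed 0 in p53WT_3dai and at 4.33, 6.43 and 8.41 FPKM in p53KO_3dai (adjusted p = 0.0314). AA465934 was listed at 0 in p53WT_3dai and at 13.0, 9.57 and 5.87 FPKM in p53KO_3dai (adjusted p = 0.0428). A 0 stands among the 6 values of 6 of the 14 called genes, and since the files also list 0 at 15 genes with a median over 20 FPKM, a listed 0 may be a failed estimate. The deposited locus of Pigb overlaps Ccpg1, that of Prss8 overlaps Kat8 and that of AA465934 overlaps other loci, so these values are uncertain, and the sources used here do not state how fragments were shared between overlapping genes.

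Among genes with the widest gap between the groups, several that did not pass were clear in every library. Hbegf, a heparin-bound growth factor of the epidermal growth factor family, was at 11.2, 11.9 and 10.9 FPKM in p53WT_3dai and at 23.4, 29.5 and 33.2 FPKM in p53KO_3dai (log2 difference 1.25, SE 0.32, adjusted p = 0.233). Fbxo22, an F-box protein, was at 19.2, 18.2 and 12.3 FPKM against 30.7, 29.2 and 28.7 FPKM (adjusted p = 0.335). In the other direction Zfp672, a zinc finger gene, was at 29.8, 19.4 and 18.5 FPKM against 3.79, 3.53 and 2.37 FPKM (log2 difference -2.46, SE 0.54, adjusted p = 0.139). Cdc42ep3, an effector of Cdc42, was at 11.6, 8.22 and 8.65 FPKM against 2.68, 1.17 and 1.29 FPKM (adjusted p = 0.0764). Groups that do not overlap were found at 1488 genes (13.4%), so such a gap alone is common.

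Several of the genes that parted the p53KO_3dai replicates most belong to stress responses, while Trp53 was low in all 3. Hmox1, which encodes the haem-degrading enzyme haem oxygenase 1, was at 207, 180 and 196 FPKM in p53WT_3dai, 264 FPKM in p53KO_3dai replicate 1, and 3.58 and 5.56 FPKM in replicates 2 and 3. Trib3, a pseudokinase induced by Atf4, was at 55.6, 36.0 and 50.8 FPKM, then 47.1, 0.453 and 0.844 FPKM. Chac1, which degrades glutathione, was at 41.6, 63.2 and 42.7 FPKM, then 55.6, 0.531 and 1.91 FPKM. At these genes replicate 1 was at or near the p53WT_3dai range and replicates 2 and 3 were far below it. Fgf21, a stress hormone, was at 18.7, 19.3 and 17.9 FPKM in p53WT_3dai, 16.6 FPKM in replicate 1, and listed at 0 in replicates 2 and 3. Ccl2, a chemokine for monocytes, was at 36.4, 56.3 and 69.8 FPKM, then 62.9, 1.20 and 2.52 FPKM, and Ndrg1, a hypoxia-responsive gene, at 64.6, 77.8 and 66.8 FPKM, then 98.8, 3.41 and 6.46 FPKM. Clec2d, Ctgf and Il6 followed the same order. Ndufs5 did as well, but it was also at 0.0956 FPKM in p53WT_3dai replicate 3, so a value near 0 occurred there too.

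The opposite order was led by the inducible Hsp70 genes, Hspa1a and Hspa1b. The rest of the 10 widest gaps were at Hotairm1, Hist1h4d, Gng11, Nrn1, Ptgis, Nubpl, Cep95 and B9d1. At each of these replicate 1 was itself near 0, at 0 to 0.768 FPKM. Hspb1 and Egr1, given below, are not among the 10. Hspa1a was at 8.03, 10.2 and 8.70 FPKM in p53WT_3dai, 5.37 FPKM in p53KO_3dai replicate 1, and 332 and 366 FPKM in replicates 2 and 3. Hspa1b was at 19.8, 14.8 and 23.2 FPKM, then 10.8, 373 and 396 FPKM; the coding regions of these neighbours are near identical, so how reads divide between them is uncertain. Hspb1, a small heat shock protein, was at 37.7, 22.6 and 30.4 FPKM, then 49.0, 115 and 141 FPKM. Egr1, an immediate early transcription factor, was at 13.2, 11.6 and 8.71 FPKM, then 18.4, 92.5 and 95.7 FPKM. None of Hspa1a, Hspa1b, Hspb1 and Egr1 passed the limma test with all 3 replicates (Hspa1a: log2 difference 3.21, SE 1.13, adjusted p = 0.320). In the 10 libraries of the other groups Hspa1a ran from 38.0 to 1862 FPKM and Hmox1 from 159 to 1107 FPKM, so for Hspa1a the 4 low libraries of 3dai, and for Hmox1 p53KO_3dai replicates 2 and 3, lie outside the range of the rest of the series.

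**Figure D3:**
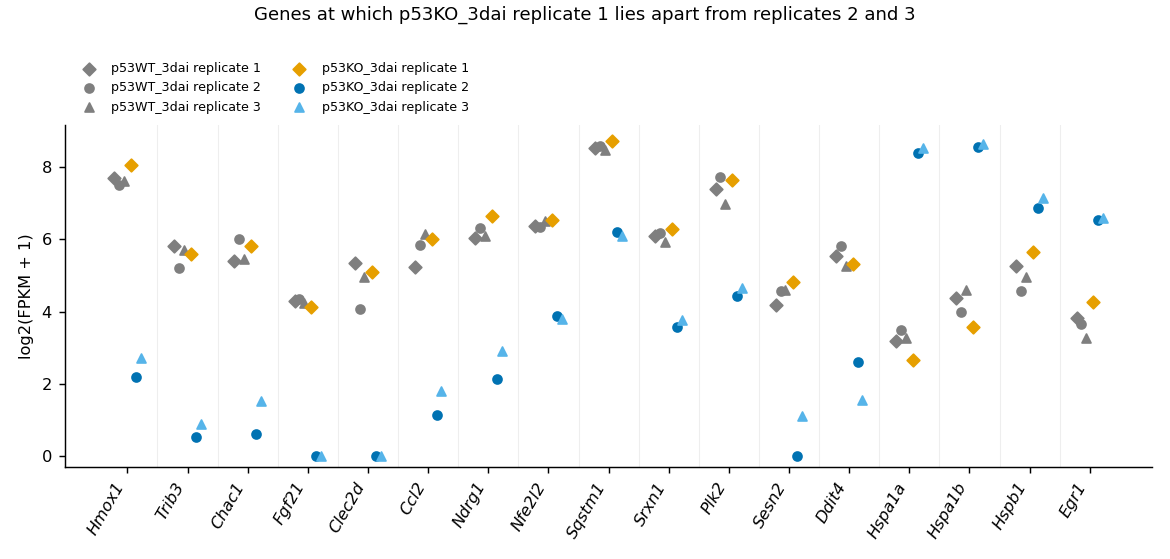
Levels in log2(FPKM + 1) of 17 genes chosen to show how the p53KO_3dai replicates parted, each point 1 library, grey for p53WT_3dai. From Hmox1 to Ddit4 replicate 1 (orange) lies with p53WT_3dai and replicates 2 and 3 (blue) lie below; from Hspa1a to Egr1 replicates 2 and 3 lie above.

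The Atf4 genes showed this split. Atf4 is the transcription factor of the integrated stress response, which is switched on when translation is held back by amino acid lack or by unfolded proteins, and it binds a C/EBP-Atf composite element. Of 24 Atf4 genes tested, 0 were called with all replicates (limma; 12 lower at an unadjusted p under 0.05) and 12 were lower without p53KO_3dai replicate 1, against 7.42% and 4.84% of all genes. Their median difference from the p53WT_3dai mean was 0.02, -1.15 and -1.45 in replicates 1, 2 and 3. Replicates 2 and 3 were below the p53WT_3dai range with replicate 1 not below at 15 of 24 (62.5%), against 15.5% of all genes. Atf4 was itself at 593, 620 and 759 FPKM, then 679, 234 and 276 FPKM, and Nupr1 at 92.3, 122 and 160 FPKM, then 125, 12.9 and 12.2 FPKM. Phgdh, of serine synthesis, differed little, at 178 to 219 FPKM against 174, 174 and 176 FPKM.

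The letters TGATGNAA, a short form of that composite element, were searched on both strands in the same windows and were found in 9 of the 21 Atf4 genes with an entry (42.9%), against 2.56% of the genes tested and 4.51% of all genes with an entry. They are shown upstream of 3 genes that parted the replicates, Chac1, Fgf21 and Nupr1, in capitals and as they read along the gene. The stretches are chr2:119350992-119351241 (plus strand), chr7:45615491-45615740 (minus strand) and chr7:126625471-126625720 (minus strand) of GRCm38.p6, and the element starts at base -193, -139 and -110 before the start.
Chac1: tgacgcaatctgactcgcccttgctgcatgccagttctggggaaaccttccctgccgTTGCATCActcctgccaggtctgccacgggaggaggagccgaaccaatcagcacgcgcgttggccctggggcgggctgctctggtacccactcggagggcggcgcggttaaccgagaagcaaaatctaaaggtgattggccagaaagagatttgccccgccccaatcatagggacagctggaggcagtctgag
Fgf21: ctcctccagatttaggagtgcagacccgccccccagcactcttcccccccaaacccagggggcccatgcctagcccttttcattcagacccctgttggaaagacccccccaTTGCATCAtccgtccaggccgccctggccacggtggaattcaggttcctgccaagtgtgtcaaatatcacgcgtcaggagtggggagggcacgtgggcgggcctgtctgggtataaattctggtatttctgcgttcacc
Nupr1: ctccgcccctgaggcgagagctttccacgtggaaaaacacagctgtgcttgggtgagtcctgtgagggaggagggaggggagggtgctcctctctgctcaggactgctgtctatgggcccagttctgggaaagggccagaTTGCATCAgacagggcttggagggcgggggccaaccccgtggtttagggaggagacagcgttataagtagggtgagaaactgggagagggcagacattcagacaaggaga

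**Figure D4:**
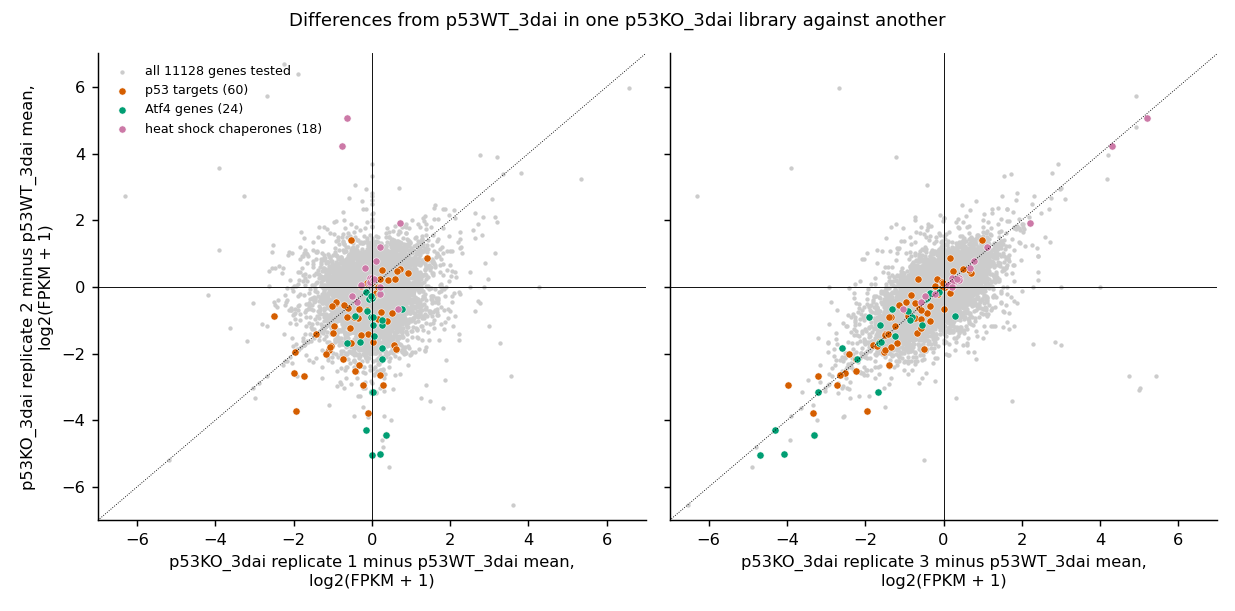
Difference from the p53WT_3dai mean, log2(FPKM + 1), in p53KO_3dai replicate 2 (vertical axis) against replicate 1 (left) and replicate 3 (right), each point 1 of the 11128 genes tested; the dotted line marks equal differences. Atf4 genes (green) fall along the vertical axis on the left and along the dotted line on the right, and p53 targets (orange) spread between the 2 patterns on the left.

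Antioxidant genes showed the split in part. Nfe2l2, which encodes Nrf2, the transcription factor that drives many antioxidant genes, was at 82.2, 80.6 and 89.3 FPKM in p53WT_3dai and at 92.5, 13.7 and 13.0 FPKM in p53KO_3dai. Srxn1, which restores oxidised peroxiredoxins, was at 67.5, 70.6 and 59.2 FPKM, then 77.4, 10.8 and 12.5 FPKM. Replicates 2 and 3 were below the p53WT_3dai range with replicate 1 not below at 11 of 23 genes (47.8%, against 15.5% of all genes), and 5 were lower by the test without replicate 1, a fit that called 4.84% of all genes lower. Prdx1, a peroxiredoxin, was at 409 to 578 FPKM against 428 to 479 FPKM. Sqstm1, an autophagy receptor that Nrf2 also induces, was at 369, 385 and 357 FPKM, then 421, 73.1 and 67.6 FPKM.

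Senescence and secreted stress factors had a median difference of 0.06, -1.62 and -1.39 in p53KO_3dai replicates 1, 2 and 3. With all replicates 1 of 20 was called, Cdkn1a, against 0.126% of all genes, and without replicate 1 there were 11, all lower, against 4.84% of all genes. Cxcl1, a neutrophil chemokine, was at 99.2, 110 and 55.9 FPKM, then 141, 12.9 and 10.3 FPKM. Cdkn2b, the inhibitor p15, was at 9.06, 7.54 and 10.4 FPKM, then 13.4, 0.188 and 0.850 FPKM, whereas Lmnb1, which is lost in senescent cells, was at 115 to 133 FPKM against 117 to 127 FPKM.

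Heat shock chaperones more often lay the other way in p53KO_3dai replicates 2 and 3. These replicates were above the p53WT_3dai range at 11 and 13 of 18 genes, against 25.4% and 23.8% of all genes. They were below it at 4 and 4, against 32.4% and 32.6%. Both were above the range with replicate 1 not above at 9 of 18 genes (50%, against 9.78% of all genes). Both were below with replicate 1 not below at 2 (11.1%, against 15.5%). Without replicate 1 Hspa1a, Hspa1b and Hspb1 were called higher, against 0.44% of all genes. Dnajb1, another inducible chaperone, was within 31.1 to 37.0 FPKM in p53WT_3dai and at 27.2, 34.2 and 35.9 FPKM in p53KO_3dai. Cryab was lower in replicates 2 and 3, at 45.6, 58.5 and 62.2 FPKM, then 87.3, 34.6 and 26.5 FPKM. Immediate early genes were more often lower in replicates 2 and 3, with a median difference of 0.19, -0.78 and -0.42 in replicates 1, 2 and 3. Replicates 2 and 3 were below the p53WT_3dai range with replicate 1 not below at 10 of 24 (41.7%, against 15.5% of all genes). They were above it with replicate 1 not above at 1 (4.17%, against 9.78%). Egr1 was high in replicates 2 and 3. Myc was at 73.1, 74.7 and 58.7 FPKM, then 93.0, 24.8 and 23.9 FPKM, and Klf4 at 50.05, 72.5 and 56.5 FPKM, then 75.6, 14.5 and 17.4 FPKM.

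Cell cycle genes showed no called difference. Of 30 mitosis genes 0 were called, against 0.126% of all genes. At an unadjusted limma p under 0.05, 2 were higher and 0 lower, against 2.64% and 7.42% of all genes. Counted on its own over the same 30 genes, every p53KO_3dai library lay above every p53WT_3dai library at 9 (30%), against 5.64% of all genes. Among these, Mki67, a marker of cycling cells, was at 74.0, 75.3 and 55.4 FPKM against 89.0, 95.0 and 82.1 FPKM (log2 difference 0.38, SE 0.30, adjusted p = 0.717), and Top2a, a topoisomerase of dividing cells, was at 172, 176 and 125 FPKM against 185, 267 and 265 FPKM (log2 difference 0.59, adjusted p = 0.472). The median over the list was 0.04, 0.34 and 0.25 in replicates 1, 2 and 3. Of 32 DNA replication genes 0 were called, with a median of -0.08. By the unadjusted limma p under 0.05, 3 were lower and 0 higher, against the same shares of all genes. The other kinase inhibitor of the p21 family with a split was Cdkn1b, or p27, at 33.9, 31.1 and 34.3 FPKM, then 31.7, 11.3 and 12.3 FPKM.

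Myogenic regulators had 0 of 21 called with all replicates (limma; 6 lower at an unadjusted p under 0.05, against 7.42% of all genes) and 6 lower without p53KO_3dai replicate 1, against 4.84% of all genes. Myf5 was at 48.6, 68.4 and 46.1 FPKM, then 67.5, 22.99 and 20.3 FPKM, and Msc, a repressor of the myogenic programme, at 6.49, 6.13 and 7.61 FPKM, then 14.8 and 0.996 FPKM and a listed 0. Of the inhibitors of differentiation, Id1 and Id3 were lower in all 3 p53KO_3dai libraries: Id1 was at 147, 188 and 285 FPKM against 146, 42.1 and 89.9 FPKM, and Id3 at 176, 252 and 301 FPKM against 158, 62.5 and 64.4 FPKM (adjusted p = 0.246 for each). Extracellular matrix genes set replicate 1 apart the other way, with a median difference of 0.59, -0.08 and -0.13, and replicate 1 above the p53WT_3dai range with replicates 2 and 3 not above at 14 of 31 (45.2%, against 13.9% of all genes). Ribosomal protein genes were level, with a median of -0.01. By limma 0 of 32 were called, against 0.126% of all genes, and 0 had an unadjusted p under 0.05, against 10.1% of all genes.

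Markers of some other cells differed along with the split, and others did not. The summed level of 10 Schwann cell markers was 52.3 to 79.2 FPKM in p53WT_3dai and 96.3, 24.6 and 21.6 FPKM in p53KO_3dai replicates 1, 2 and 3, with 0 of the 10 at 0 in all libraries. For 10 pericyte and smooth muscle markers, of which Kcnj8 was listed at 0 throughout, it was 28.9 to 51.1 FPKM against 64.6, 31.2 and 25.2 FPKM, with replicate 2 inside the p53WT_3dai range. For 10 fibro-adipogenic progenitor markers, with Pi16 and Clec3b at 0 throughout, it was 39.4 to 57.2 FPKM against 67.3, 41.0 and 25.6 FPKM, again with replicate 2 inside the range. For 10 tenocyte markers, 0 of them at 0 throughout, it was 83.8 to 117 FPKM against 143, 161 and 167 FPKM, above p53WT_3dai in all 3 replicates. Egr1, which is on that list, made up 92.5 and 95.7 FPKM of the sum in replicates 2 and 3, against 8.71 to 13.2 FPKM in p53WT_3dai. Without Egr1 the sum in replicates 2 and 3 was not above p53WT_3dai. Mature muscle fibre markers summed to 57.4 to 115 FPKM against 69.01, 115 and 119 FPKM. Macrophage markers summed to 6.21 to 8.20 FPKM against 3.92, 12.1 and 10.6 FPKM, with Csf1r, C1qa, Fcgr1 and Tyrobp at 0 throughout. Endothelial markers stayed at or under 6.60 FPKM with Pecam1 and Kdr at 0, and lymphocyte, red blood cell and adipocyte markers at or under 1.15 FPKM with 8 of 9, 6 of 7 and 5 of 7 at 0. The part of these cells, or of the Mir6236 share, in the results was not tested. In bulk RNA, fewer cells of a type and less RNA per cell cannot be told apart.

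**Figure D5:**
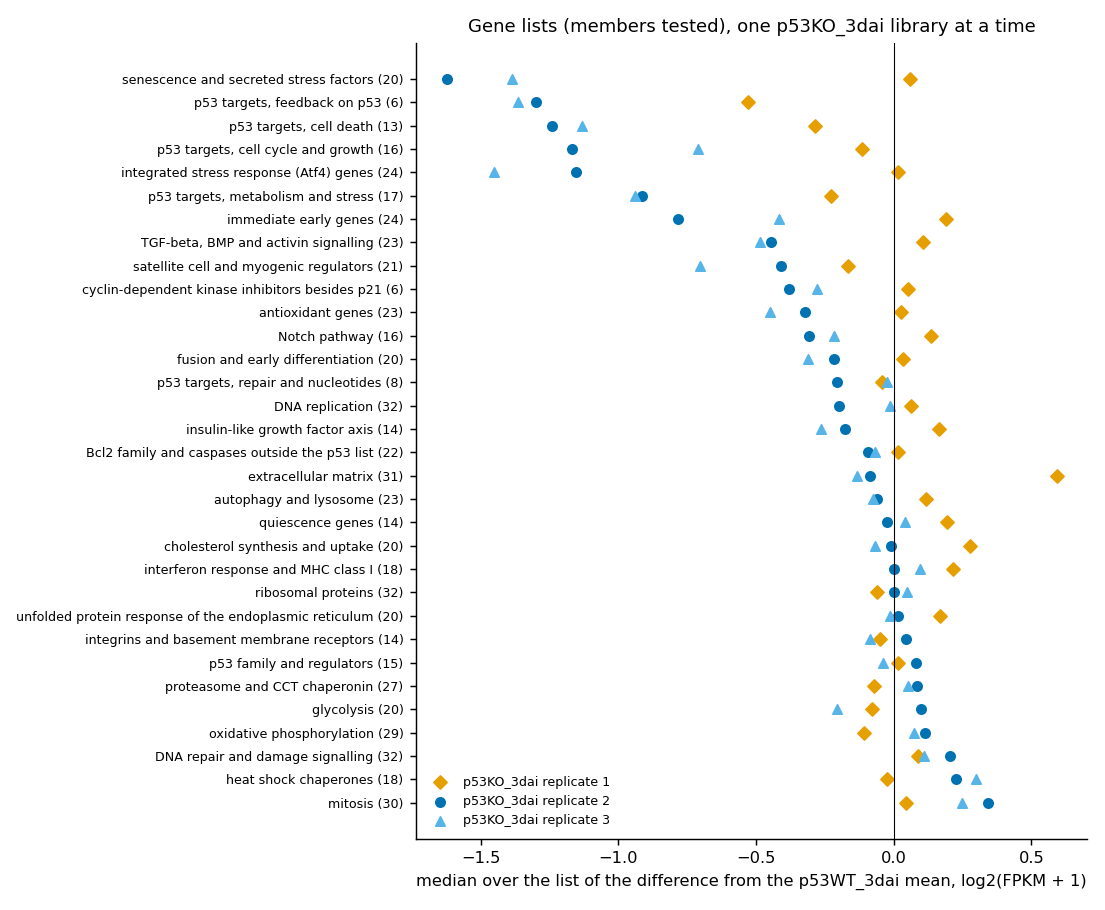
Median over each gene list of the difference from the p53WT_3dai mean in log2(FPKM + 1), with 1 symbol for each p53KO_3dai library and the number of members tested in brackets. Replicates 2 and 3 lie close together and replicate 1 lies nearer 0 at the lists at the top, among them senescence factors, 4 p53 target lists and Atf4 genes.

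The genotype difference was set against that of the libraries with no suffix, p53KO and p53WT (n = 3 each, hind limb muscles of C57BL/6 mice of the same ages, sorted the same way). There Trp53 was the only gene called (0.00899%), and the median over the 60 p53 targets was 0.04, against -0.74 in 3dai. The test of the difference between these differences, an interaction in the same limma fit, called 0 genes, with 708 (6.36%) at an unadjusted p under 0.05, and 162 were called without p53KO_3dai replicate 1. The smallest p among p53 targets were those of Phlda3 (interaction log2 -2.15, SE 0.36, adjusted p = 0.280), Gdf15 (-3.72, SE 0.70, adjusted p = 0.306) and Ephx1 (-2.26, SE 0.46, adjusted p = 0.333). Phlda3 was at 10.5, 12.5 and 15.8 FPKM in p53WT with no suffix and 15.5, 11.5 and 7.18 FPKM in p53KO, so its groups overlapped there, and Ccng1 was at 10.2, 5.43 and 7.57 FPKM against 4.93, 9.21 and 6.19 FPKM. The muscle differs along with the suffix, and the 2 cannot be told apart. Values in the G2 groups, whose suffix the labels do not spell out (p53WT_G2 and p53KO_G2, n = 2 each, hind limb muscles), lay in the same direction at all 8 targets called in 3dai. Ccng1 was at 70.2 and 68.7 FPKM against 16.9 and 11.8 FPKM there, Phlda3 at 105 and 99.2 FPKM against 55.2 and 41.8 FPKM, and Cdkn1a at 369 and 388 FPKM against 137 and 168 FPKM, with no overlap at these 3 genes. Mdm2, Pmaip1, Slc19a2, Trp53inp1 and Ephx1 were also lower in both p53KO_G2 libraries than in both p53WT_G2 libraries. Whether the 3dai difference is other than that in G2 was not tested.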

How the data were processed

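The authors deposited FPKM, with a file for each library; per the submitters' processing notes reads went through STAR, Cufflinks and Cuffdiff with mm10, tool versions not given in the sources used here. Total RNA was made into libraries with a directional kit, per the labels' protocols.

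FPKM of all 16 libraries were taken to log2(FPKM + 1) and fitted as 6 groups that share 1 spread, with limma 3.58.1 (R 4.3.3) and a variance trend; every adjusted p is limma's with Benjamini-Hochberg adjustment over the genes tested, two-sided. Depth is not given. Low values, read as steps of 1 fragment, put the relative depth at 0.603 to 1.10 of p53WT_3dai replicate 1, but only 10 to 19 of 73 to 86 genes shared a step, so no count test was run. Sums of FPKM were 529605 to 616485. On simulated data the fit recovered 30% of 200 genes changed 2-fold (10755 genes) and 86% of 200 changed 4-fold (10774 genes).

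Members and lists were chosen with earlier results of these data known. Some lists share members, so their counts are not separate observations. Cdkn1a and Gdf15 are both p53 targets and senescence factors, and Sesn2 is both a p53 target and an Atf4 gene. Genes are named by a rule: Trp53 and the sort genes; called genes; the 12 widest gaps each way at a mean of 5 FPKM; p53 targets without overlap or split between replicates; the 10 widest replicate gaps each way; 2 members each way per list; and 5 each way for the interaction. The gaps leave out small RNA names and unnamed loci. Results of some named genes are left out, and others were chosen after values were seen, among them Phgdh, Prdx1, Sqstm1, Srxn1, Lmnb1, Dnajb1, Mdm4, Cxcl1, Cdkn1b, Cdkn2b, Myc, Klf4, Mki67, Top2a, Myf5, Msc, Pank1 and Mir6236. Alternatives covered the pseudocount (0.1), filters, scalings, array weights, the libraries fitted, the replicate block, missing status and each library left out. A fit without p53KO_3dai replicates 2 and 3 and one of the 6 libraries without replicate 1 were added after seeing the data.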

Additional observations from a re-analysis of the deposited data

How the results depend on the processing

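Called genes numbered 14 in the reported fit. They were 6 with a pseudocount of 0.1, 7 with a filter at a mean of 5 FPKM, 7 under median-of-ratios scaling, 6 with only the 6 3dai libraries in the fit (4 of the 14 among them: Phlda3, Trp53, Ccng1 and AA465934), 807 with array weights (105 higher, 702 lower; p53KO_3dai replicate 1 had a weight of 0.351), 2 to 576 with 1 library left out, 0 without p53KO_3dai replicates 2 and 3, and 423 with the 6 libraries but without p53KO_3dai replicate 1. With the replicate number as a block there were 2 calls, Phlda3 and Trp53. Deviations of same-numbered 3dai samples correlated at -0.05, 0.02 and 0.02, and those of differently numbered ones at -0.08 to 0.05. With 3 libraries in each group these values cannot show whether the numbers pair the samples. The interaction, with 0 calls, gave 1 with a pseudocount of 0.1, 43 with array weights, 0 to 162 with 1 library left out and 1 without p53KO replicate 3. The median over p53 targets was -0.135 without p53KO_3dai replicates 2 and 3.

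The repair list's median turned to 0.0109 under quantile normalization, 0.0264 under median-of-ratios scaling, 0.0564 with small RNA and mitochondrial names left out and 0.0469 without p53KO_3dai replicates 2 and 3. Without those 2 libraries log2 differences turned at Itga7 (-0.12), Rchy1 (0.52), Plk2 (0.29), Gadd45a (0.63), Ckap2 (0.07), Rap2b (0.15), Fas (0.20), Perp (0.03), Sesn2 (0.36) and Sco2 (0.25), where the lone library is assumed to vary like the other groups. With 1 library left out Rchy1 ran from -0.60 to 0.05 and Gadd45a from -1.18 to 0.06, both highest without p53KO_3dai replicate 2. The cause was not tested in any of these. Depth is unknown, so no floor can be given for a listed 0.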

Other observations

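Zinc finger genes named Zfp and a number were chosen as a group after values were seen. Of 264 tested, 33 (12.5%, against 7.73% of all genes) had every p53KO_3dai library below every p53WT_3dai library and 9 (3.41%, against 5.64%) had every one above, 0 were called (limma; 26 lower and 6 higher at an unadjusted p under 0.05, against 7.42% and 2.64% of all genes), and the median log2 difference was -0.19, against -0.04 over all genes tested. By p53KO_3dai replicate the median was 0.01, -0.26 and -0.27.

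Several genes listed at 0 in the 3 p53WT_3dai libraries and in p53KO_3dai replicate 1 had values in replicates 2 and 3. Arl9 was at 11.8 and 6.55 FPKM there, Cx3cr1 at 2.58 and 2.65 FPKM, and the replication-dependent histone gene Hist1h1a at 6.07 and 2.64 FPKM. Among small RNA names, Snora65 was at 545 and 431 FPKM and Snora16a at 285 and 329 FPKM in replicates 2 and 3 and listed at 0 in the other 4 libraries.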
